A study of Mus musculus with 16 samples.

Results

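The genes described are 10 regulators of how many mitochondria a cell makes and of how those mitochondria fuse and divide: Ppargc1a, Ppargc1b, Esrra, Nrf1, Tfam, Mfn1, Mfn2, Opa1, Dnm1l and Fis1. They were chosen by name, and every array probe whose RefSeq accession belongs to one of them was taken, which gave 20 probes of the 55681 on the array. The 10 genes are part of 28972 genes tested. These include array entries without a RefSeq symbol, each counted as a gene, so shares and medians over all genes cover them too. The RNA came from dissected skeletal muscle of male mice aged 21 to 23 weeks and was measured on 16 one-colour Agilent arrays, 4 per group. By the sample titles, 2 groups were on the standard diet, CB1KO mice (CB1KO_SD) and WT mice (WT_SD). The other 2 were on the high fat-high sugar diet, CB1KO mice (CB1KO_HFHS) and WT mice (WT_HFHS). The diet tag differs from the title for the CB1KO_SD and WT_HFHS arrays. The titles were followed, and every comparison below depends on that choice. CB1KO stands for Skm-CB1R-/-, loss of the cannabinoid 1 receptor gene from skeletal muscle through a loxP-flanked allele (CNR1 flox/flox) and a Cre transgene driven by the ACTA1 promoter, which is active in muscle fibres. WT stands for the control littermates, Skm-CB1R+/+, and the breeding notes list the floxed allele and a Cre-positive status for both genotypes. The standard diet (SD) gave 16.7% of its energy as fat and 12.4% as sugar. The HFHS diet gave 49.2% as fat and 32.2% as sugar, and tissue was taken after 15 weeks. The labels name neither the muscle nor which mice had been assigned to vehicle or to S961, and they do not say that each array came from a mouse of its own, so p-values measure the spread between these samples.

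PGC-1α (Ppargc1a) and PGC-1β (Ppargc1b) are coactivators: they bind no DNA themselves but switch on genes of oxidative metabolism through factors such as ERRα (Esrra) and NRF1 (Nrf1). NRF1 in turn drives Tfam, which is carried into mitochondria and is needed there to copy and transcribe mitochondrial DNA. The mitochondrial network is remodelled by fusion, carried out by the mitofusins (Mfn1, Mfn2) in the outer membrane and OPA1 (Opa1) in the inner one, and by fission, carried out by DRP1 (Dnm1l), with FIS1 (Fis1) as an outer membrane protein linked to it. In muscle these genes are studied as part of the response to exercise, diet and fibre type.

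Levels are given as log2 relative level, the log2 processed intensity minus the 75th percentile of that array, so that 1 unit is a doubling, and a level of one gene is not set against that of another. Of the 10 genes, every one had a probe well above background on all 16 arrays, and the number of arrays limits the precision. Across all genes, spots well above background made up 56.74% to 75.04% of each array, no spot was saturated, and pairs of arrays correlated at r = 0.856 to 0.992 over all probes. Replicate 2 of CB1KO_SD and replicate 1 of CB1KO_HFHS stood apart, with an SD of log2 signal of 2.89 and 3.97 against 3.14 to 3.69 on the other 14 arrays. With diets read from the titles, all SD arrays were on 1 slide and all HFHS arrays on another, so slide and diet cannot be told apart. On each slide CB1KO arrays lay in one row and WT arrays in the other, so row and genotype cannot be told apart either. Cnr1, the targeted gene, was measured by 1 probe, and whether that probe lies in the deleted part was not analysed here. Its level ran between -3.69 and -2.23 in CB1KO_SD and between -3.64 and -2.03 in WT_SD, and between -2.93 and -1.49 in CB1KO_HFHS and between -3.18 and -1.75 in WT_HFHS. Its genotype difference was -0.24 ± 0.46 (SE) on SD and -0.14 ± 0.46 on HFHS, with adjusted p of 0.932 and 0.923, so this probe did not separate the genotypes. The 10 muscle fibre markers examined, among them Acta1 and Ckm, were well above background on all 16 arrays.

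Promoter stretches are shown for 3 of the genes, Ppargc1a, Esrra and Opa1. On the brightest probe, each of them had a pair of groups that did not overlap. Each line is 200 bases, ending 1 base before the annotated transcription start, read 5′ to 3′ on the gene's strand from RefSeq (GRCm38.p6). Capitals mark matches to motifs searched on both strands: the NRF1 core GCATGCG, the Sp1 GC box GGGCGG and the CREB core TGACG.
Ppargc1a, chr5:51567726-51567925, minus strand: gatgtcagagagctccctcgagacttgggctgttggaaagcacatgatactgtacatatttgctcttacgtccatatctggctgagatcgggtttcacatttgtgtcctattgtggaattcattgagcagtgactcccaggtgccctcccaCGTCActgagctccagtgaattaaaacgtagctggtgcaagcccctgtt
Esrra, chr19:6921809-6922008, minus strand: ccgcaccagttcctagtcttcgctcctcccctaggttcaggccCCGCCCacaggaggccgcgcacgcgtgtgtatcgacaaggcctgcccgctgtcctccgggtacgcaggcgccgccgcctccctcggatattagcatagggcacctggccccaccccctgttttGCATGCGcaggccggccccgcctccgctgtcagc
Opa1, chr16:29579134-29579333, plus strand: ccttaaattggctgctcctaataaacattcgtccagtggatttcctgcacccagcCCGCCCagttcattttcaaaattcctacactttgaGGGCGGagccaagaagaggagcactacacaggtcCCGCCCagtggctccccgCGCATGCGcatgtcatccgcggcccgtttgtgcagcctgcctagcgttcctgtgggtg

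The search covered windows of 250 bases before to 50 bases after each start, of which 14 belonged to 9 of the 10 genes. The NRF1 core was in 2 of the 14 windows, those of Esrra and Opa1, and in 3.58% of all 32851 promoter windows. In Opa1 it matched on both strands, over overlapping letters. The Sp1 GC box was in 10 of the 14 windows and in 35.7% of all windows. These 10 came from 8 genes, all except Ppargc1a among the 9. The CREB core was in 5 of the 14 windows, from Mfn1, Mfn2 and Ppargc1a, and in 20.8% of all windows. The letters CCGGAAG, a site for GABP, were in 5 of the 14 windows and in 8.86% of all windows. Those 5 belonged to Dnm1l, Fis1, Mfn1 and Tfam. The letters AAGGTCA, the ERR core, were in none of the 14 windows and in 4.72% of all windows. A match describes letters and is not a measured binding site.

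The first comparison asked how loss of the receptor from muscle went with these regulators on each diet. None of the 10 genes passed limma's adjusted p threshold of 0.05 in CB1KO against WT, whether on SD, on HFHS or averaged over both diets. Over all 28972 genes, 0.00345% were called on SD, 0.249% on HFHS and 0.763% in the average, so a count of 0 among 10 genes is near this background. At an unadjusted p under 0.05 there was 1 of the 10 genes on SD (Ppargc1a), against 9.03% of all genes, 1 on HFHS (Esrra), against 9.4%, and 0 in the average, against 15%. On this scale the median of all genes was itself below 0, at -0.12 on SD, -0.14 on HFHS and -0.13 in the average, and the medians of the 10 genes were -0.01, -0.15 and -0.10. The arrays of the genotypes did not overlap for 0 of the 10 genes on SD, against 1.03% of all genes with CB1KO higher and 3.18% with CB1KO lower. On HFHS they did not overlap for 2, Esrra and Opa1, both lower in CB1KO, against 3.16% of all genes higher and 6.92% lower. On both diets at once, 0 of the 10 genes were apart in one direction, against 0.128% higher and 0.428% lower.

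**Figure D1:**
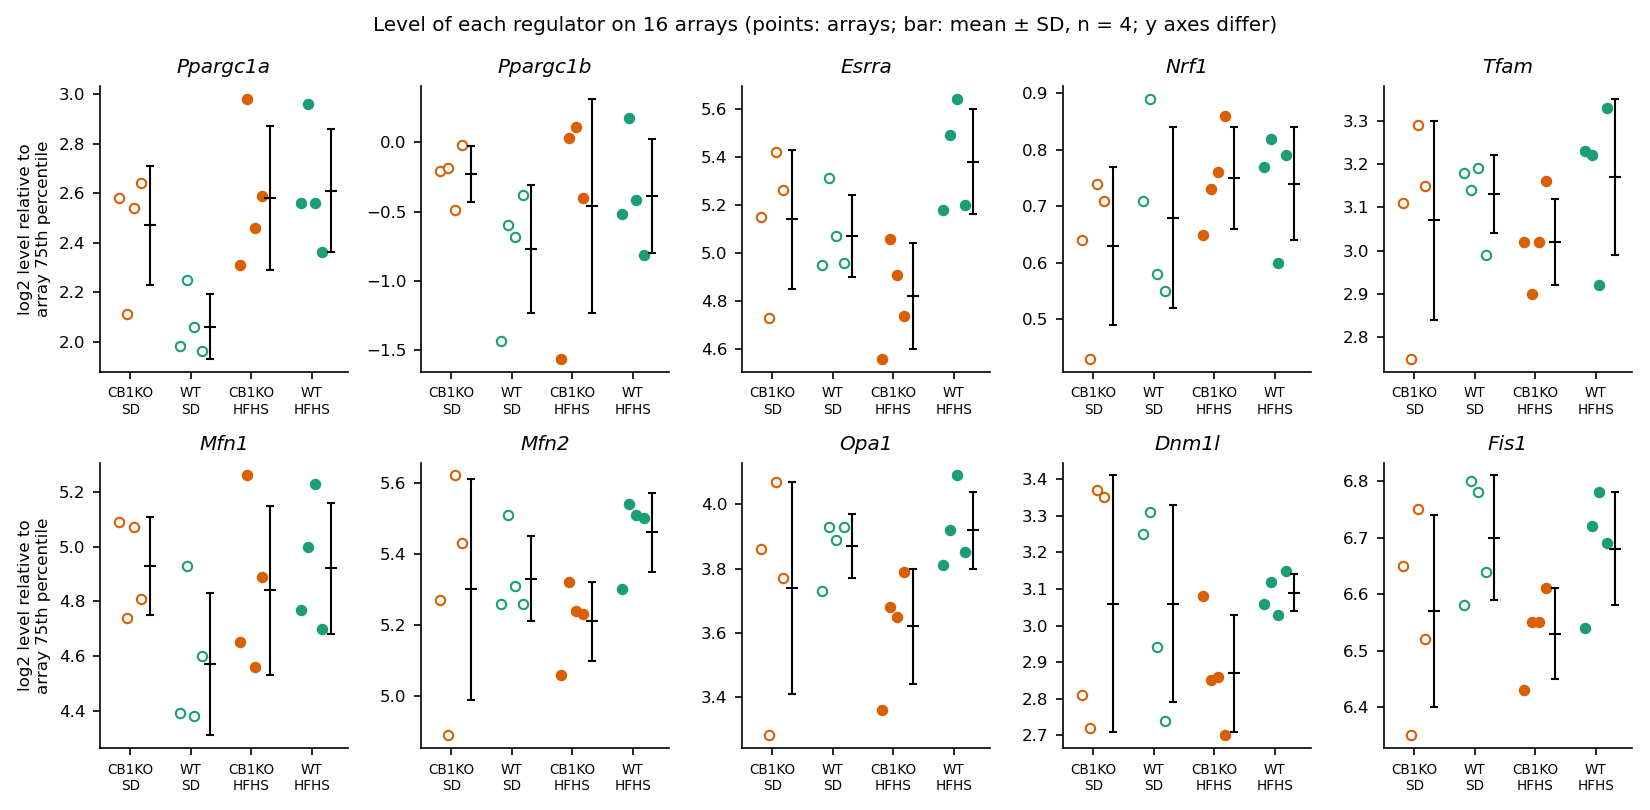
Log2 level relative to the array's 75th percentile (y axis, a different range in each panel) for the 10 genes in 4 groups (x axis); each point is an array, open for SD and filled for HFHS, and the bar gives the mean ± SD of 4 arrays. The brightest probe of each gene is shown. On it Esrra and Opa1 do not overlap between CB1KO_HFHS and WT_HFHS, and Ppargc1a does not overlap between WT_HFHS and WT_SD.

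Among the coactivators and their partner ERRα, the largest differences were those of Ppargc1a and Ppargc1b on SD and of Esrra on HFHS, and none passed the test. Ppargc1a had 2.58, 2.11, 2.54 and 2.64 in CB1KO_SD, against 1.98, 2.25, 2.06 and 1.96 in WT_SD. All CB1KO_SD arrays except replicate 2 lay above every WT_SD array. The difference was 0.41 ± 0.17 (SE, 95% interval 0.03 to 0.78, a 1.33-fold higher intensity), with a limma adjusted p of 0.511. Without replicate 2 of CB1KO_SD, the array with the narrowest signal spread, it was 0.53 with an adjusted p of 0.182. On HFHS the level of Ppargc1a averaged 2.58 ± 0.29 in CB1KO and 2.61 ± 0.25 in WT (SD, n = 4 each), and the interval of the difference, -0.40 to 0.35, included 0. Both probes of Ppargc1a had the same sign on each diet, with differences of 0.21 to 0.41 on SD.

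Markers of slow-twitch fibres, which are rich in mitochondria, moved with the SD comparison. The summed linear level of 8 such genes, including Myh7 and Tnni1, all well above background on every array, was 284 to 750 times the 75th percentile in CB1KO_SD and 19.7 to 220 times in WT_SD, with no overlap. All 8 slow-twitch genes were above 0 in CB1KO against WT on SD, with a median of 2.76, and none was called. The summed level of 8 fast-twitch genes was 3740 to 7080 in CB1KO_SD and 4840 to 5990 in WT_SD. Replicate 2 of CB1KO_SD, an array of unusual signal spread, stood at 7080. The other CB1KO_SD arrays lay at 3740 to 4150, below every WT_SD array. Of the 8 fast-twitch genes 0 were above 0 in this comparison, with a median of -0.22, against -0.12 over all genes, and none was called. On HFHS the slow-twitch sums overlapped, at 36.7 to 608 in CB1KO and 29.2 to 895 in WT. In whole muscle, fewer cells of a type and less RNA per cell cannot be told apart, and the part of fibre type in the Ppargc1a difference was not tested.

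Ppargc1b had -0.21, -0.19, -0.49 and -0.02 in CB1KO_SD, against -1.43, -0.60, -0.68 and -0.38 in WT_SD. The groups overlapped, and the difference of 0.54 ± 0.34 (SE) had a 95% interval from -0.18 to 1.27. It was the most variable of the 10 genes, with a span of 1.73 over the 16 arrays, and replicate 1 of CB1KO_HFHS alone lay at -1.56. Its HFHS means were -0.46 ± 0.77 in CB1KO and -0.39 ± 0.41 in WT (SD, n = 4 each), and the difference turned to 0.31 without replicate 1 of CB1KO_HFHS, against -0.06 with it.

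Esrra, which codes for the nuclear receptor ERRα, had the largest genotype difference of the 10 genes on HFHS. Its levels were 4.56, 5.06, 4.91 and 4.74 in CB1KO_HFHS, against 5.18, 5.49, 5.64 and 5.20 in WT_HFHS. Every CB1KO_HFHS array lay below every WT_HFHS array. The difference was -0.56 ± 0.17 (SE, 95% interval -0.92 to -0.20, 0.678 times the WT intensity) with a limma adjusted p of 0.268, and it was -0.42 relative to the median of all genes. On SD, Esrra averaged 5.14 ± 0.29 in CB1KO and 5.07 ± 0.17 in WT (SD, n = 4 each), and the interval of the difference was -0.29 to 0.44. When the arrays were weighted by their quality, the HFHS difference was -0.53 with an adjusted p of 0.0137, in a setting that called 8.16% of all genes, while the value without both arrays of unusual spread was -0.48 with an adjusted p of 0.207.

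The DNA-binding factor NRF1 and the mitochondrial factor TFAM overlapped between the genotypes on both diets. Nrf1 averaged 0.63 ± 0.14 in CB1KO_SD and 0.68 ± 0.16 in WT_SD, and 0.75 ± 0.09 in CB1KO_HFHS and 0.74 ± 0.10 in WT_HFHS (SD, n = 4 each). The 95% intervals of its genotype difference were -0.29 to 0.19 on SD and -0.24 to 0.25 on HFHS. Tfam averaged 3.07 ± 0.23 in CB1KO_SD and 3.13 ± 0.09 in WT_SD, and 3.02 ± 0.10 in CB1KO_HFHS and 3.17 ± 0.18 in WT_HFHS. Its intervals were -0.33 to 0.23 on SD and -0.43 to 0.13 on HFHS. Each gene had 3 probes, which did not share a sign in either comparison, and 1 of the Nrf1 probes was well above background on 10 arrays only.

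Among the fusion genes, Mfn1 had a higher mean in CB1KO than in WT on SD, without passing the test. It had 5.09, 4.74, 5.07 and 4.81 in CB1KO_SD, against 4.39, 4.93, 4.38 and 4.60 in WT_SD. Only replicate 2 of WT_SD reached into the CB1KO_SD range, and the difference was 0.35 ± 0.18 (SE, 95% interval -0.04 to 0.75, adjusted p = 0.614 by limma). On HFHS, Mfn1 averaged 4.84 ± 0.31 in CB1KO and 4.92 ± 0.24 in WT (SD, n = 4 each). The other Mfn1 probe gave a genotype difference of 0.19 ± 0.19 (SE) on SD and -0.2 ± 0.19 on HFHS.

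Opa1, which fuses the inner membrane, had 3.36, 3.68, 3.65 and 3.79 in CB1KO_HFHS, against 3.81, 3.92, 4.09 and 3.85 in WT_HFHS. On this brightest probe the groups did not overlap, though the highest CB1KO_HFHS array and the lowest WT_HFHS array were close. The difference was -0.30 ± 0.16 (SE, 95% interval -0.63 to 0.04, adjusted p = 0.589 by limma), and its 2 probes gave -0.38 to -0.30. On the other probe the groups overlapped, with CB1KO_HFHS up to 2.52 and WT_HFHS from 2.51. On SD, Opa1 averaged 3.74 ± 0.33 in CB1KO and 3.87 ± 0.10 in WT (SD, n = 4 each), with an interval of -0.46 to 0.21.

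Mfn2 had 5.06, 5.32, 5.24 and 5.23 in CB1KO_HFHS, against 5.30, 5.54, 5.51 and 5.50 in WT_HFHS. The overlap came from replicate 1 of WT_HFHS, at 5.30. The difference was -0.25 ± 0.14 (SE, 95% interval -0.56 to 0.06, adjusted p = 0.627 by limma), and the 3 probes of Mfn2 did not share a sign, running from -0.25 to 0.01. On SD, Mfn2 averaged 5.30 ± 0.31 in CB1KO and 5.33 ± 0.12 in WT (SD, n = 4 each).

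The fission genes overlapped between the genotypes on both diets. Dnm1l averaged 3.06 ± 0.35 in CB1KO_SD and 3.06 ± 0.27 in WT_SD, and 2.87 ± 0.16 in CB1KO_HFHS and 3.09 ± 0.05 in WT_HFHS (SD, n = 4 each). Its HFHS difference of -0.22 ± 0.17 (SE) had an interval of -0.59 to 0.16. Fis1 averaged 6.57 ± 0.17 in CB1KO_SD and 6.70 ± 0.11 in WT_SD, and 6.53 ± 0.08 in CB1KO_HFHS and 6.68 ± 0.10 in WT_HFHS. Its differences were -0.13 ± 0.11 (SE) on SD and -0.15 ± 0.11 on HFHS, close to the median of all genes. Its 2 probes differed in size on HFHS, at -0.47 and -0.15, and in sign on SD, at 0.04 and -0.13.

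**Figure D2:**
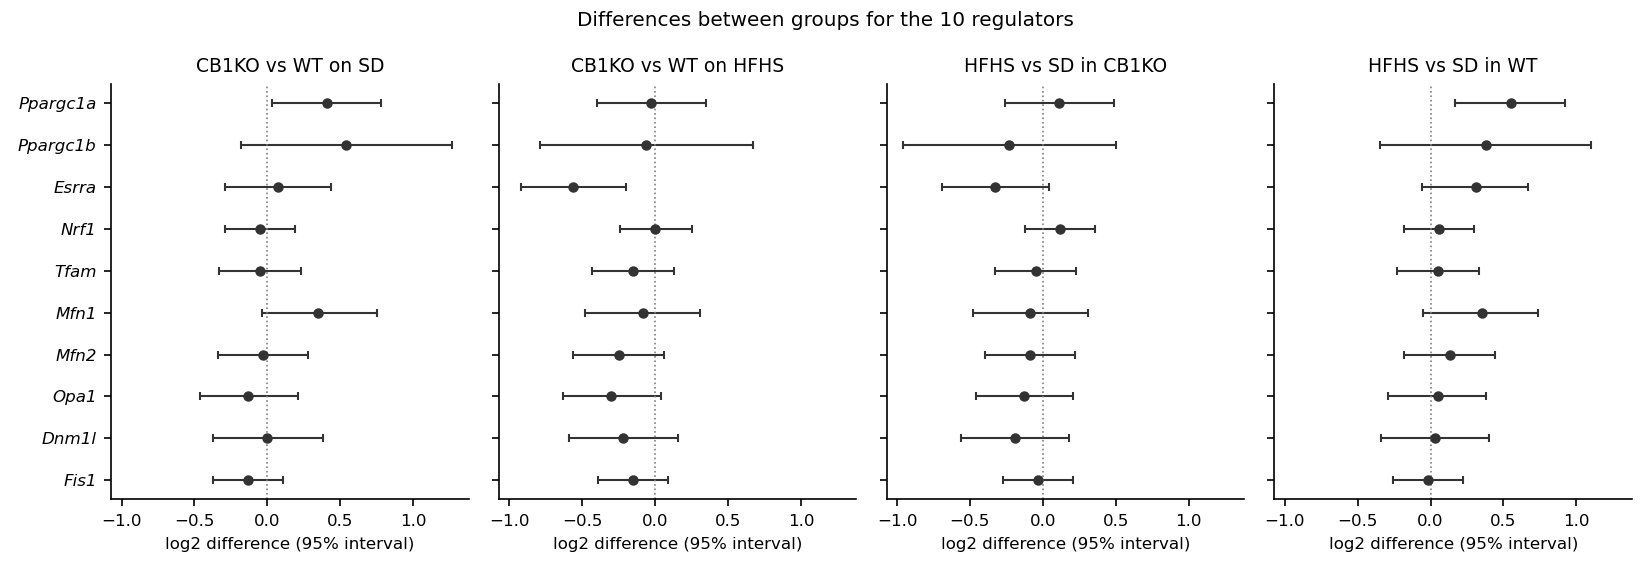
Log2 difference with its 95% interval (x axis, the same scale in each panel) for the 10 genes (y axis) in CB1KO against WT on each diet and in HFHS against SD in each genotype. The interval excludes 0 for Ppargc1a on SD, for Esrra on HFHS and for Ppargc1a in WT, and none of these passed the adjusted threshold.

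The second comparison asked how the high fat-high sugar diet went with these genes in each genotype. It shares its arrays with the genotype comparisons, and slide cannot be told apart from diet. None of the 10 genes passed the limma threshold in CB1KO, where 0.0276% of all genes were called, or in WT, where 0% were called. At an unadjusted p under 0.05 there were 0 of the 10 genes in CB1KO, against 9.59% of all genes, and 1 in WT (Ppargc1a), against 6.06%. The arrays of the diets did not overlap for 0 of the 10 genes in CB1KO, against 2.48% of all genes higher on HFHS and 1.25% lower, and for 1 in WT, against 2.04% higher and 3.36% lower.

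In WT muscle, Ppargc1a had 2.56, 2.96, 2.56 and 2.36 on HFHS, against 1.98, 2.25, 2.06 and 1.96 on SD. On the brightest probe every WT_HFHS array lay above every WT_SD array, while on the other probe these groups overlapped and differed by 0.37 ± 0.25 (SE). The difference on the brightest probe was 0.55 ± 0.17 (SE, 95% interval 0.17 to 0.92, a 1.46-fold higher intensity) with a limma adjusted p of 0.648. With array weights it was 0.70 with an adjusted p of 0.0162, in a setting that called 5.58% of all genes. Slow-twitch markers moved with this comparison too: all 8 were above 0 in WT on HFHS against SD, with a median difference of 1.15, none of them called, though their sums overlapped, at 29.2 to 895 in WT_HFHS and 19.7 to 220 in WT_SD. Of the 8 fast-twitch genes, 0 were above 0 in this comparison, with a median of -0.36 and none called. The part of both marker sets in the result was not tested. In CB1KO muscle, Ppargc1a averaged 2.58 ± 0.29 on HFHS and 2.47 ± 0.24 on SD (SD, n = 4 each), with an interval of the difference of -0.26 to 0.49. The order of its group means was thus WT_HFHS, CB1KO_HFHS, CB1KO_SD and WT_SD, and each group overlapped with the next in that order.

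Of the other genes in WT, Mfn1 differed by 0.35 ± 0.18 (SE, interval -0.05 to 0.74), Ppargc1b by 0.38 ± 0.34 (interval -0.35 to 1.1) and Esrra by 0.31 ± 0.17 (interval -0.06 to 0.67) between HFHS and SD. In all 3 the WT_HFHS and WT_SD arrays overlapped. In CB1KO the corresponding value for Esrra was -0.33 ± 0.17 (interval -0.69 to 0.04), and Esrra had 4.56, 5.06, 4.91 and 4.74 in CB1KO_HFHS, against 5.15, 4.73, 5.42 and 5.26 in CB1KO_SD. Replicate 2 of CB1KO_SD was the array that overlapped with CB1KO_HFHS, and without it the difference was -0.46 with a limma adjusted p of 0.33. Without replicate 1 of CB1KO_HFHS, the other array of unusual spread, it was -0.24 with an adjusted p of 0.98. Of the 10 genes, 2 were above 0 in CB1KO, against 40.6% of all genes, and 9 were above 0 in WT, against 41% of all genes. The median of the 10 genes was -0.09 in CB1KO and 0.10 in WT, and that of all genes was -0.07 in CB1KO and -0.06 in WT. With the deposited z-scores, 2 of the 10 were above 0 in CB1KO, while in WT 5 were above and 4 below.

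Whether the genotype difference itself changed with diet was tested with the interaction term, the difference on HFHS minus that on SD. No gene of the 28972 passed (0%), while 1052 genes, 3.63%, had an unadjusted p under 0.05, and Esrra was the 1 of the 10 genes among them. Esrra had an interaction of -0.63 ± 0.24 (SE, 95% interval -1.15 to -0.12, adjusted p = 1 by limma). Ppargc1a had -0.43 ± 0.25 (interval -0.96 to 0.09), Mfn1 -0.44 ± 0.26 (interval -0.99 to 0.12) and Ppargc1b -0.61 ± 0.48 (interval -1.63 to 0.42). The interaction was below 0 for 9 of the 10 genes, with a median of -0.22, against 51.7% of all genes and a median of -0.01. A difference between diets was therefore not shown for any of these genes. Without replicate 1 of CB1KO_HFHS the Ppargc1b interaction was -0.24. The slow-twitch markers had an interaction below 0 for 8 of 8 genes, with a median of -2.34, and a median of -1.30 in HFHS against SD in CB1KO. The fast-twitch markers had an interaction above 0 for 8 of 8 genes, with a median of 0.18. The part of both marker sets in the interaction values of the regulators and of the target genes described below was not tested.

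Within groups, several of the 10 genes varied together from array to array. After each group's mean was removed, Pearson correlations over the 16 arrays were above 0 for 42 of the 45 pairs of the 10 genes, with a median of 0.51. The 6 pairs among Esrra, Mfn2, Opa1 and Fis1, picked as the highest of these same values, ran from 0.79 to 0.89. Dnm1l had 0.04 with Mfn1, 0.19 with Opa1 and 0.21 with Fis1, and Ppargc1b with Dnm1l was the lowest, at -0.36. These values share the same arrays and the same scaling, and they are given as a description, without a background over all gene pairs. On single arrays nearly all of the genes lay on one side: 9 of the 10 genes were below their own group's mean on replicate 2 of CB1KO_SD, where 48.2% of all genes were, and on replicate 1 of CB1KO_HFHS, where 66.3% were. On replicate 2 of WT_SD and on replicate 2 of WT_HFHS 0 of the 10 were below it, against 61% and 42.7% of all genes. The 2 arrays with 9 genes below are the arrays of unusual signal spread, and the part of array quality in this pattern was not tested.

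**Figure D3:**
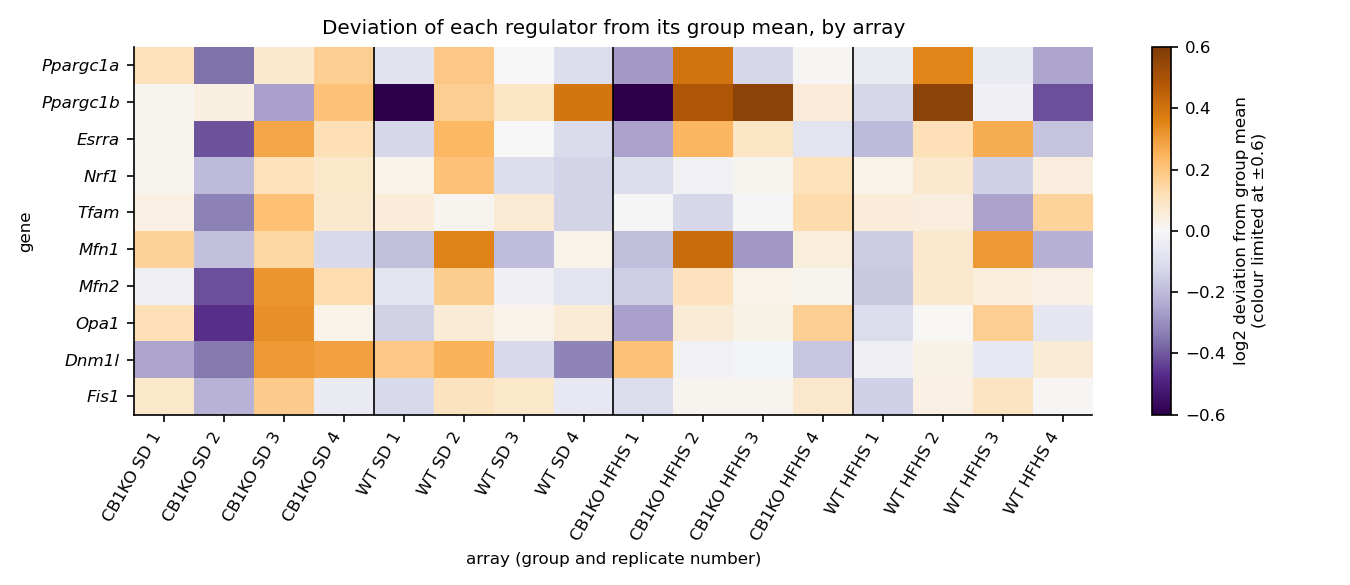
Log2 deviation of each gene (y axis) from the mean of its group on each of the 16 arrays (x axis), with purple below and orange above the mean and colours limited at ±0.6. Replicate 2 of CB1KO_SD is below the mean for 9 of the 10 genes, with a median of -0.33.

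The genes outside the list whose levels over the 16 arrays were most like those of Ppargc1a were Lims1 (r = 0.866, rho = 0.894), P2rx5 (r = 0.849, rho = 0.885) and Impa2 (r = 0.848, rho = 0.859), out of 12643 named genes well above background on every array. For Mfn2 they were Nudt6 (r = 0.953, rho = 0.871), Sgk3 (r = 0.942, rho = 0.900) and Smim20 (r = 0.939, rho = 0.900). Without the 2 arrays of unusual spread, these r values were 0.842 to 0.890 for Ppargc1a and 0.867 to 0.925 for Mfn2. They describe these arrays and carry no test.

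The genes on which these regulators act, or which act on them, were described from 5 lists, and none of their members passed the limma threshold in any of the comparisons. The 18 known PGC-1 and ERR target genes code for respiratory chain subunits, enzymes of fat oxidation and related proteins. On HFHS, 16 of the 18 were below 0 in CB1KO against WT, with a median of -0.33, against a median of -0.14 and 68.6% below 0 over all genes. On SD, 8 of the 18 were below 0, with a median of 0.05, against -0.12 over all genes, and this split moved with the scaling: 1 of 18 was below 0 after quantile normalization, while the HFHS count was 16 of 18 under both scalings. In CB1KO, all 18 were below 0 in HFHS against SD, with Idh3a at 0.00 after rounding and a median of -0.25 over the list. Over all genes in that comparison 59.4% were below 0, with a median of -0.07. In WT, 6 of the 18 were below 0, with a median of 0.11, against 59% and a median of -0.06 over all genes. The deposited z-scores, rescaled to log2, gave a median of -0.56 for the 18 genes in CB1KO, and in WT they turned the direction, with 13 of the 18 below 0 and a median of -0.12.

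Cycs, which codes for the electron carrier cytochrome c, averaged 7.24 ± 0.23 in CB1KO_HFHS and 7.74 ± 0.23 in WT_HFHS (SD, n = 4 each). Its difference was -0.50 ± 0.16 (SE) on HFHS (adjusted p = 0.286 by limma) and -0.09 ± 0.16 on SD. Uqcrfs1, the Rieske subunit of complex III, averaged 6.72 ± 0.21 in CB1KO_HFHS and 7.13 ± 0.16 in WT_HFHS, and Cox4i1, a subunit of complex IV, 7.98 ± 0.23 and 8.34 ± 0.22 in the same groups. Pdk4, the kinase that restrains pyruvate oxidation, averaged 7.62 ± 0.42 in CB1KO_HFHS and 8.11 ± 0.36 in WT_HFHS, and 8.03 ± 0.18 in CB1KO_SD and 8.31 ± 0.15 in WT_SD. The interaction was below 0 for 18 of the 18 genes, with a median of -0.32, and Etfdh, an electron carrier of fat oxidation, had -0.98 ± 0.33 (SE, adjusted p = 1 by limma).

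**Figure D4:**
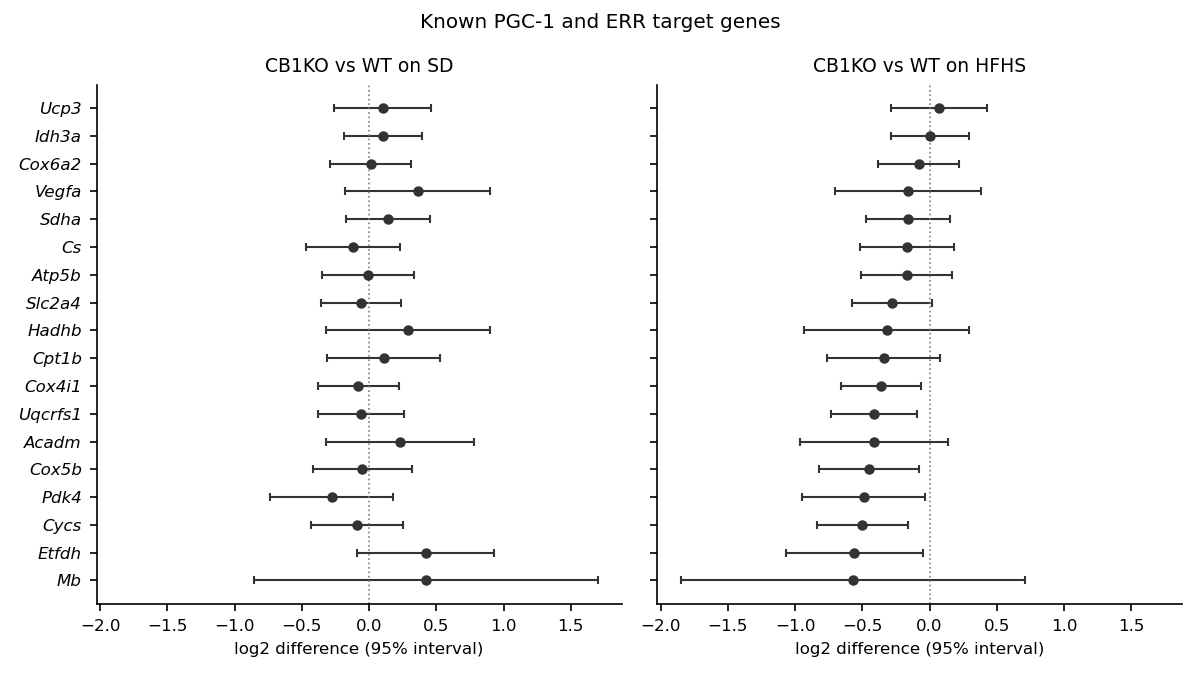
Log2 difference with its 95% interval (x axis) in CB1KO against WT for 18 known PGC-1 and ERR target genes (y axis, ordered by the HFHS value), on SD in the left panel and on HFHS in the right one. The points run from -0.28 to 0.42 on SD and from -0.57 to 0.07 on HFHS.

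Of 20 genes that assist fission and fusion, 18 were below 0 in CB1KO against WT on HFHS, with a median of -0.18, against 68.6% below 0 and a median of -0.14 over all genes, and the list's median ran from -0.21 to -0.11 over the alternatives. Chchd3, a protein of the cristae junctions, averaged 4.99 ± 0.06 in CB1KO_HFHS and 5.51 ± 0.13 in WT_HFHS (SD, n = 4 each), with a difference of -0.52 ± 0.15 (SE, adjusted p = 0.255 by limma). Mul1, a ubiquitin ligase of the outer membrane, averaged 2.73 ± 0.14 in CB1KO_HFHS and 3.23 ± 0.09 in WT_HFHS. On SD, Chchd3 stood at 5.37 ± 0.36 in CB1KO and 5.45 ± 0.13 in WT and Mul1 stood at 2.97 ± 0.38 in CB1KO and 3.09 ± 0.10 in WT. Marchf5, another ligase of that membrane, differed by -0.25 ± 0.11 (SE) in the average over diets. Gdap1, a fission factor best known from nerve, differed by -0.76 ± 0.32 with wide spread in each group.

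Of 14 genes linked to mitophagy, the removal of damaged mitochondria, 12 were below 0 in the average over diets, against 72.1% of all genes. The median was -0.18 for the list and -0.13 for all genes. The list's median ran from -0.23 to -0.09 over the alternatives. Ulk1, the kinase that starts autophagy, averaged 5.96 ± 0.39 in CB1KO_SD and 6.41 ± 0.20 in WT_SD, and 5.83 ± 0.22 in CB1KO_HFHS and 6.20 ± 0.17 in WT_HFHS (SD, n = 4 each). Its average difference was -0.41 ± 0.13 (SE, adjusted p = 0.17 by limma). Fundc1, a mitophagy receptor of the outer membrane, averaged 2.44 ± 0.37 in CB1KO_SD and 2.80 ± 0.26 in WT_SD, and 2.52 ± 0.18 in CB1KO_HFHS and 2.98 ± 0.20 in WT_HFHS, with an average difference of -0.41 ± 0.13 (adjusted p = 0.174). Park7 and Optn, a redox protein and an autophagy receptor, differed by -0.20 ± 0.07 and -0.24 ± 0.11 in the average.

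A list of 16 genes was read for the copying and transcription of mitochondrial DNA, though not all of them act in it directly. Its median was -0.05 in the average over diets, above that of all genes (-0.13), with 12 genes below 0. The list's median ran from -0.09 to 0.02 over the alternatives. Mterf1a, a terminator of mitochondrial transcription, averaged -1.57 ± 0.03 in CB1KO_SD and -1.25 ± 0.27 in WT_SD, and -1.39 ± 0.25 in CB1KO_HFHS and -1.19 ± 0.06 in WT_HFHS (SD, n = 4 each). Polrmt, the mitochondrial RNA polymerase, and Lonp1, a protease of the matrix, differed by -0.17 ± 0.11 and -0.21 ± 0.11 (SE), and Tfb1m, which methylates mitochondrial ribosomal RNA, by 0.17 ± 0.12. Among the 20 coactivator partners and upstream regulators, 17 were below 0 in the average, with a median of -0.09, which also lay above the median of all genes and ran from -0.14 to 0.02 over the alternatives. Prkaa2, a catalytic subunit of the energy sensor AMPK, differed by -0.24 ± 0.12 (SE, adjusted p = 0.354 by limma), Yy1 by -0.22 ± 0.12, Ppard by -0.15 ± 0.12 and Mef2d by 0.13 ± 0.10.

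Markers of other cells were also read on the same arrays. The summed level of 7 adipocyte genes ran from 5.83 to 86.7 in CB1KO_SD and from 4.15 to 219 in WT_SD. It ran from 21.9 to 141 in CB1KO_HFHS and from 27.2 to 63.2 in WT_HFHS, and it overlapped between genotypes on each diet. In CB1KO against WT on SD, 0 of the 7 genes were above 0, with a median of -1.05. In HFHS against SD, 6 were above 0 in CB1KO (median 1.75) and 6 in WT (median 0.55). In the interaction all 7 were above 0 (median 1.33). None was called, and their part in the values of the regulators and target genes was not tested. Sums of 8 macrophage genes were 15.8 to 37.8 in CB1KO_SD and 17 to 48.6 in WT_SD, and 26.9 to 72.9 in CB1KO_HFHS and 17 to 37.9 in WT_HFHS. In CB1KO against WT on HFHS, Esrra, Opa1 and 16 of the 18 target genes had lower values. All 8 macrophage genes were above 0 there, with a median of 0.91. They were also above 0 in HFHS against SD in CB1KO (median 0.64) and in the interaction (median 0.89). In WT, 0 of the 8 were above 0 in HFHS against SD (median -0.2). Of 4 brown adipocyte genes tested, 0 were above 0 in CB1KO against WT on HFHS (median -0.55). In HFHS against SD, 0 were above 0 in CB1KO (median -0.54) and 2 in WT (median -0.01). No gene of these 2 lists was called, and their part in the values above was not tested. Sums of 6 endothelial genes were 17.6 to 23.2 in CB1KO_SD and 17.6 to 23.4 in WT_SD, and 15.1 to 23.5 in CB1KO_HFHS and 16.6 to 28.2 in WT_HFHS. The neuronal gene Nefl was well above background on none of the 16 arrays.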

How the data were processed

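Each deposited scanner file gives spot intensities from Feature Extraction 11.5.1.1, per the file headers; the processed intensity used here was corrected for background within an array and not scaled between arrays. The authors' series table gives 1 score for each spot, which equalled each array's standardized log2 processed intensity to within 0.005. Groups were taken from titles; the diet tag differs from them for CB1KO_SD and WT_HFHS arrays.

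Outlier spots were set to missing, each array's 75th percentile was subtracted on the log2 scale, and a probe was kept where at least 4 of 16 arrays had it well above background. The brightest probe stood for a gene, and 28026 probes took RefSeq symbols. The other 27655 probes were grouped by the name the array gives them, and each name that passed the filter counted as a gene. All 16 arrays entered 1 limma 3.58.1 model (lmFit, eBayes; R 4.3.3) with a mean for each group. Tests were two-sided with Benjamini-Hochberg adjustment over 28972 genes and a threshold of 0.05, and the code was tested on simulated data. The regulators, gene lists and alternatives were chosen with earlier results of these data known. From each list the 4 genes with the smallest p in the averaged comparison were named. Etfdh was chosen after its values were seen. Alternatives covered scaling, filters, probes, variance models, blocks and left-out arrays.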

Additional observations from a re-analysis of the deposited data

Results flagged for a closer look

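Of 40 groups of 4 arrays checked, 1 held an array far from the others: Mfn2 stood at 5.30 on replicate 1 of WT_HFHS, while the other WT_HFHS arrays lay between 5.50 and 5.54. The gap was 0.849 of the group's range, above Dixon's 95% critical value for 4 samples. Chance alone flags about 1 group in 20.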

How the results depend on the processing

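The count of regulators called was 0 in all 6 comparisons under every alternative run except array weights, which called 1 on HFHS in CB1KO against WT (Esrra) and 1 in HFHS against SD in WT (Ppargc1a). Over all genes, the calls in the averaged comparison were 221, with 59 under the replicate block, 870 without both arrays of unusual spread, 1734 with signal spread as a covariate and 3014 with array weights. On SD they were 1 and ran from 0 to 534, and on HFHS they were 72 and ran from 15 to 2363. Array weights gave the highest number of calls in each comparison, and the cause was not tested. Replicate numbers showed no steady pairing of the samples. Same-numbered arrays had deviations correlated from -0.75 to 0.61, and 5 of 16 arrays correlated best with their own number in another group. The deviations within a group sum to 0, so these correlations cannot exclude a pairing. On both slides the replicate number was also the slide column. The replicate block called 0 regulators in each comparison. Of the 60 differences of the 10 regulators, the 30 larger than their own SE kept their sign under all alternatives, while 24 of the 30 smaller ones changed sign under at least 1. Single differences were traced for the first 30 only, a limit chosen after these sign changes were seen. On SD, 5 of the 10 regulators were below 0 with the 75th percentile, 3 after quantile normalization and 1 after normexp and quantile normalization. On HFHS these counts were 9, 7 and 7. Slide as a random block was not run, since each slide holds 1 diet and the group means already contain it, and fits of only the groups compared exist for neither the average nor the interaction. The 95% intervals bound what 4 arrays per group can show.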
